A study of Mus musculus with 24 samples.

Results

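The cap-binding eIF4E family and its inhibitors, the 4E binding proteins (4E-BPs), were followed here through mRNA, footprints and translation efficiency (TE) in mouse neuroblastoma cells. The members were the transcripts whose symbol in the count tables is Eif4e, Eif4e2, Eif4e3, Eif4ebp1 or Eif4ebp2. These are 5 of the 12759 transcripts listed in the RNA-seq or ribo-seq tables, and all 5 were listed in each of the 8 tables and passed the filter on low counts in each.

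The cells were Neuro-2a (N2a), an established mouse neuroblastoma line grown in high-glucose DMEM without pyruvate and with 10% FBS. Ctrl cells had been transfected with the empty Cas9-puromycin vector, and KO cells with the same vector carrying guides against exons of Eif4e3. Both were selected with puromycin, and the KO was not stated to be a single clone, so a KO library is a population of edited cells. Each was treated for 2 h with 250 nM Torin1, an inhibitor of the kinase mTOR, or with the same volume of DMSO, and cells for ribo-seq then received cycloheximide before lysis. Each of the 4 conditions had 3 replicates, each from a different passage, giving 12 RNA-seq libraries and 11 ribo-seq libraries. The authors left out the ribo-seq library of ctrl DMSO replicate 2 as an outlier, and it was not analysed here. The ctrl DMSO condition therefore rests on 2 libraries for footprints and TE.

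As background, the cap at the start of an mRNA is bound by eIF4E1, the product of Eif4e, which joins the scaffold eIF4G and the helicase eIF4A in the complex eIF4F and so brings the small ribosomal subunit to the mRNA. The 4E-BPs hold eIF4E1 away from eIF4G, and phosphorylation by mTOR complex 1 releases them, so that mTOR inhibitors such as Torin1 favour the inhibited form. eIF4E2 (4EHP) binds the cap more weakly and is best known for repressing mRNAs together with the GIGYF proteins, and eIF4E3 is the least studied of the mammalian cap-binding proteins. Many mRNAs of the translation machinery begin with a C followed by a run of pyrimidines, the TOP motif, and depend strongly on mTOR.

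The RNA-seq libraries held 17048192 to 28911595 counts over the 12278 transcripts compared for depth, and the ribo-seq libraries 669244 to 5285876 counts over 10680, the lowest being ctrl DMSO replicate 3. The 9 listed markers of sympathoadrenal neuroblastoma had a summed level of 1158 to 1440 CPM (counts scaled to a common library total) in the RNA-seq libraries. The fibroblast, immune and epithelial markers that were listed summed to at most 2.71, 4.07 and 3.78 CPM. In such bulk libraries, fewer cells with an mRNA and less of it in each cell cannot be told apart.

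The counted transcripts were located in GENCODE M21 (GRCm38, the same assembly as mm10). Eif4e lies on the plus strand of chromosome 3 from 138526179 to 138559696, with 8 exons, a 5′ transcript leader (5′ TL) of 145 nt and a CDS of 654 nt. Eif4e2 lies on the plus strand of chromosome 1 from 87213914 to 87228856, with 7 exons, a 5′ TL of 86 nt and a CDS of 738 nt. Eif4e3 lies on the minus strand of chromosome 6 from 99625135 to 99666771, with 7 exons, a 5′ TL of only 19 nt and a CDS of 624 nt. The 4E-BP genes have 3 exons each and much shorter CDSs. Eif4ebp1 lies on the plus strand of chromosome 8 from 27260329 to 27276674, with a CDS of 354 nt, and Eif4ebp2 on the minus strand of chromosome 10 from 61428491 to 61452661, with a CDS of 363 nt. The 3′ UTR was 5306 nt in Eif4ebp2 and 4192 nt in Eif4e, against 983 to 1872 nt in the other members. The CDS of Eif4e3 shares 222 nt with that of Gm20696 on the same strand, so reads there could have been split between both, and the Eif4e3 counts are uncertain to that extent.

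The bases around a RefSeq start site are shown for 3 members, because a TOP motif would lie at the start of the mRNA. Each line holds 10 bases before the RefSeq start site of GRCm38.p6 in lower case and the first 20 bases from that site in capitals, read 5′ to 3′ on the strand of the gene.
Eif4e, plus strand, chr3:138526181-138526210: aaacagcagcGGAGGCGGAGGGAGCTGGTC
Eif4e2, plus strand, chr1:87213904-87213933: ctcgccagccAACCGGAAGTAGCCGGGCCC
Eif4ebp2, minus strand, chr10:61452650-61452679: cgcagcgggaCGACCGGGCGAGAGCAGGCG
The RefSeq starts lie 12, 0 and 8 nt from the starts of the counted transcripts, in that order, downstream for Eif4e and upstream for Eif4ebp2. The lower-case bases of Eif4e thus lie within its counted transcript, whose own first bases are not shown. The motif was not looked for at the counted starts of Eif4e and Eif4ebp2. None of the 3 begins with C followed by 4 bases that are each C or T on the transcribed strand, a pattern that 823 of 32851 mouse start sites held (2.51%). Eif4ebp2 begins with C but continues with a G. Starts differ between annotations, and a missing match says only that these letters are not at these starts. Eif4e3 and Eif4ebp1 are named without a sequence.

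Eif4e3, the gene targeted in the KO, was lower in every KO library than in every ctrl library, in mRNA and in footprints. Its mRNA level, scaled by TMM (trimmed mean of M values), was 18.2, 12 and 18.2 CPM in ctrl DMSO and 14.1, 17.3 and 12.5 CPM in ctrl Torin1. In KO it was 3.68, 2.89 and 4.99 CPM with DMSO and 5.04, 4.5 and 4.69 CPM with Torin1. The groups did not overlap under either treatment, and some Eif4e3 mRNA was counted in every KO library. How many of all transcripts lack such overlap was not counted, for Eif4e3 or for the other members below.

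By the quasi-likelihood F-test of edgeR, adjusted over all transcripts tested by Benjamini-Hochberg, Eif4e3 mRNA fell by 2.05 on the log2 scale in KO with DMSO (SE 0.242, 0.242-fold, adjusted p = 0.0312) and by 1.63 with Torin1 (SE 0.14, 0.324-fold, adjusted p = 0.000101). It was the 1 member called in each of these comparisons, where 0.0183% and 1.96% of all transcripts tested were called (7.93% and 9.46% with the replicate number as a block). The call in DMSO was lost without scaling beyond library size (adjusted p = 0.162), and without ctrl DMSO replicate 1 (0.479), KO DMSO replicate 1 (0.172) or the second ctrl library that has no replicate number of its own in that table (0.213), while the log2 change stayed between -2.29 and -1.89. The mRNA of the overlapping Gm20696 had 57 to 107 counts in the ctrl RNA-seq libraries and 9 to 42 in the KO libraries.

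Footprints on Eif4e3 followed the same order. They were at 22 and 17.8 CPM in ctrl DMSO, at 21, 11.6 and 17.6 CPM in ctrl Torin1, at 2.77, 3.77 and 2.78 CPM in KO DMSO and at 6.61, 3.35 and 2.29 CPM in KO Torin1. These values rest on 4 to 92 counts per library, and no KO library reached the lowest ctrl library. The log2 difference between KO and ctrl was -2.69 with DMSO (SE 0.33, 0.155-fold, edgeR adjusted p = 0.00111, with 0.0279% of all transcripts called), and -1.93 with Torin1 (SE 0.367, 0.262-fold, edgeR adjusted p = 0.000617, with 6.03% called). Without ctrl DMSO replicate 1, the value with DMSO was -2.47 and the adjusted p 0.171.

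TE, the footprint level divided by the mRNA level, was tested as the interaction of assay and condition in one model of both kinds of counts. The remaining Eif4e3 mRNA had a TE of 1.09 ± 0.163 (SD, n = 2) in ctrl DMSO, 1.19 ± 0.452 (n = 3) in ctrl Torin1, 0.871 ± 0.389 (n = 3) in KO DMSO and 0.848 ± 0.421 (n = 3) in KO Torin1. The differences between KO and ctrl were -0.66 on the log2 scale with DMSO (95% interval -1.56 to 0.25) and -0.30 with Torin1 (-1.14 to 0.53), and neither passed the threshold. With DMSO the interval reached from 0.339-fold to above no change, so the TE of Eif4e3 was poorly determined at 4 to 92 footprints a library.

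**Figure D1:**
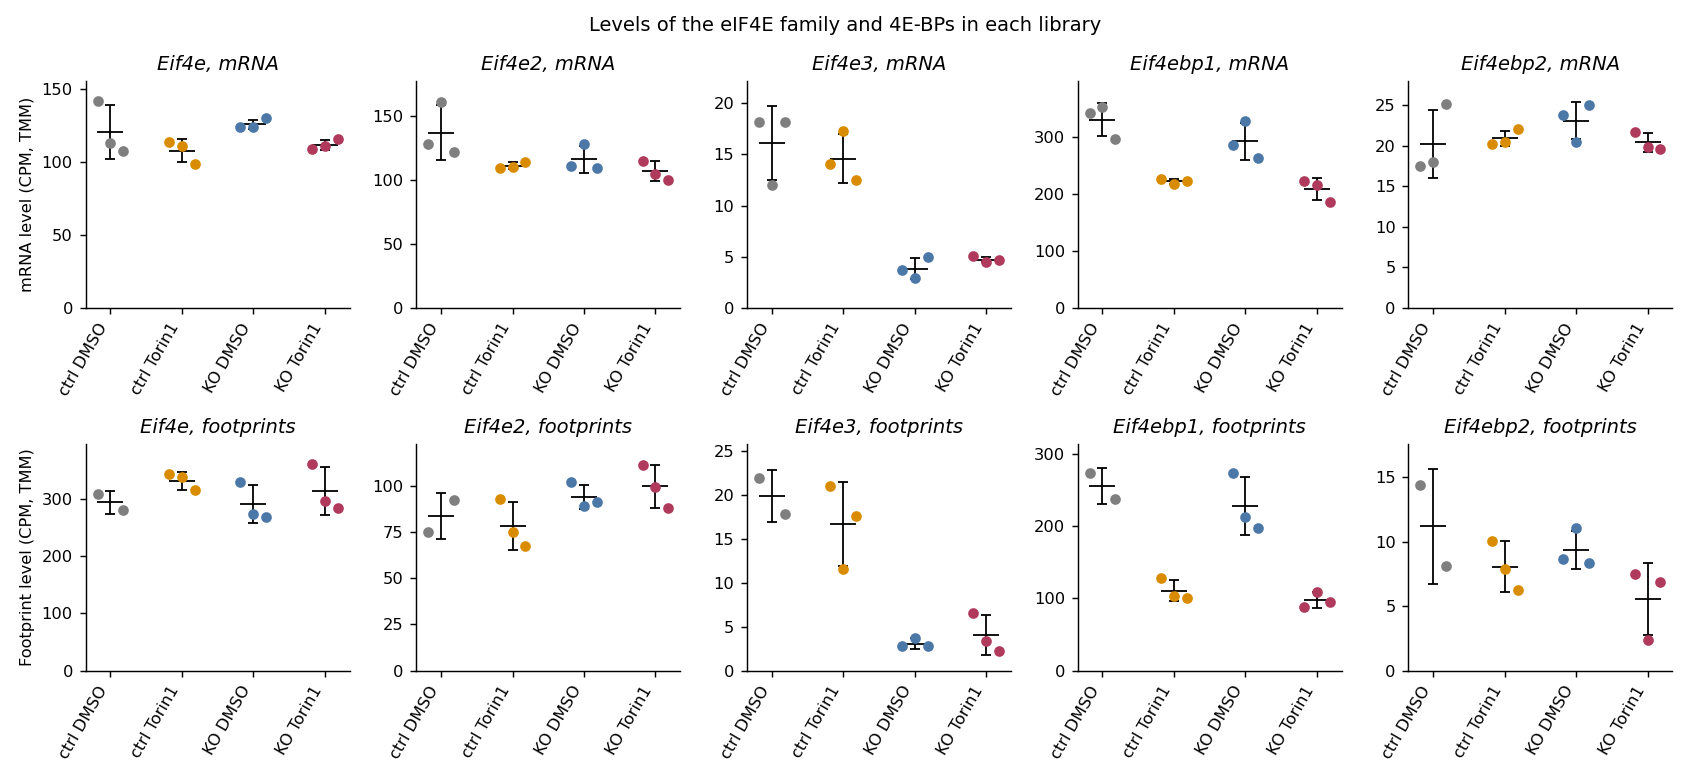
mRNA level (top, RNA-seq) and footprint level (bottom, ribo-seq) of each member in CPM after TMM scaling, with 1 point per library and black bars for the mean and SD of each condition. Eif4e3 sits at 2.29 to 6.61 CPM in all KO libraries of both assays and at 11.6 to 22 CPM in all ctrl libraries, and Eif4ebp1 footprints are at 198 to 274 CPM with DMSO and 87.7 to 128 CPM with Torin1.

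Among the cap-binding proteins, Eif4e and Eif4e2 mRNAs were of the same order, while Eif4e carried most of the footprints. To compare genes, levels were divided by CDS length and are given in CPM per kb. In ctrl DMSO the mRNA of Eif4e was at 185 ± 28.3 CPM per kb (SD, n = 3), that of Eif4e2 at 186 ± 28.7 and that of Eif4e3 at 25.8 ± 5.76. The first 2 did not differ beyond their spread, and Eif4e3 was below both in every library. In KO, Eif4e mRNA lay above that of Eif4e2 in all libraries, at 193 ± 4.75 against 157 ± 14.3 CPM per kb with DMSO and 171 ± 5.4 against 145 ± 10.3 with Torin1, without overlap, and in ctrl Torin1 both overlapped. In footprints of ctrl DMSO, Eif4e was at 450 ± 30.4 CPM per kb (n = 2), Eif4e2 at 113 ± 16.6 and Eif4e3 at 31.9 ± 4.78, with no overlap between them.

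As shares of the summed cap-binding family per CDS length, Eif4e took 42 to 56% of the mRNA and 73.6 to 81.1% of the footprints over all libraries. Eif4e2 took 41.3 to 53.3% of the mRNA but 15.2 to 22.9% of the footprints. Eif4e3 took 5.36% ± 0.637 (n = 2) of the footprints in ctrl DMSO, 4.17% ± 1.09 (n = 3) in ctrl Torin1, 0.873% ± 0.214 in KO DMSO and 1.01% ± 0.424 in KO Torin1. Such shares are tied to each other, since the loss of Eif4e3 raises the others, and they are given without a test.

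Eif4e, which encodes the main cap-binding protein, did not pass the test in any comparison. Its mRNA was at 142, 113 and 108 CPM in ctrl DMSO, 114, 111 and 99.1 in ctrl Torin1, 124, 124 and 130 in KO DMSO and 109, 111 and 116 in KO Torin1. Its footprints were at 308 and 280 CPM in ctrl DMSO, 344, 338 and 315 in ctrl Torin1, 329, 274 and 269 in KO DMSO and 362, 296 and 285 in KO Torin1. In ctrl the Torin1 libraries all lay above the DMSO libraries in footprints, and in KO they overlapped.

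On the log2 scale, Eif4e footprints differed between Torin1 and DMSO by 0.17 in ctrl (95% interval -0.13 to 0.46) and by 0.10 in KO (-0.14 to 0.34). The TE of Eif4e was 2.16 and 2.58 in ctrl DMSO against 3.01, 3.06 and 3.18 in ctrl Torin1, and 2.65, 2.2 and 2.08 in KO DMSO against 3.32, 2.67 and 2.46 in KO Torin1. It was higher with Torin1 in each pair of libraries with the same replicate number, by 0.33 (-0.06 to 0.73) in ctrl and 0.27 (-0.02 to 0.55) in KO, with edgeR adjusted p of 0.413 and 0.155. Between KO and ctrl, the difference in Eif4e was 0.06 (-0.22 to 0.34) in mRNA, -0.03 (-0.36 to 0.30) in footprints and -0.09 (-0.51 to 0.33) in TE with DMSO. With Torin1 it was 0.05 (-0.08 to 0.18), -0.08 (-0.29 to 0.14) and -0.13 (-0.37 to 0.11), so any change of Eif4e footprints in KO under Torin1 lay within these bounds at the 95% level.

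The values with Torin1 are relative to the bulk of transcripts. When libraries were scaled by size only, all transcripts together had a median log2 change of 0.23 in ctrl and 0.26 in KO for footprints with Torin1, and 0.15 and 0.22 for TE, where TMM put it at 0.02, 0.02, -0.01 and -0.01. On that unscaled measure, Eif4e and Eif4e2 were called higher in KO with Torin1, in footprints (0.35 and 0.32 against the median of 0.26, edgeR adjusted p = 0.0147 and 0.0384) and in TE (0.49 and 0.42 against the median of 0.22, adjusted p = 0.0076 and 0.0289). In either direction, 5298 of 10822 transcripts were called there in footprints and 3756 of 10535 in TE, so such calls were common. Eif4e2 footprints in ctrl turned from -0.05 to 0.16, without passing the threshold. Single libraries moved the TE of Eif4e in KO both ways, to 0.37 (adjusted p = 0.0401, past the threshold) without KO DMSO replicate 1 of the ribo-seq and to 0.15 (adjusted p = 0.456) without KO Torin1 replicate 1. In ctrl it stayed between 0.19 and 0.42 without any single library, and never passed the threshold.

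Eif4e2, the cap-binding protein known as a repressor, had mRNA levels of 128, 161 and 122 CPM in ctrl DMSO, 109, 110 and 114 in ctrl Torin1, 111, 128 and 109 in KO DMSO and 115, 105 and 100 in KO Torin1. Its footprints were at 75 and 92.3 CPM in ctrl DMSO, 92.6, 74.9 and 67.5 in ctrl Torin1, 102, 89.1 and 91.3 in KO DMSO and 111, 99.1 and 88 in KO Torin1. The KO libraries were on the high side, but KO and ctrl overlapped under both treatments. With Torin1, the difference between KO and ctrl was 0.36 on the log2 scale in footprints (95% interval 0.08 to 0.64, edgeR adjusted p = 0.117), -0.05 in mRNA (-0.18 to 0.07) and 0.42 in TE (0.13 to 0.71, adjusted p = 0.114).

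Neither value for Eif4e2 passed the threshold over all transcripts. The TE of Eif4e2 was at 0.847, 0.684 and 0.592 in ctrl Torin1 and at 0.97, 0.943 and 0.879 in KO Torin1, which did not overlap. How many of all transcripts lack overlap in the same way was not counted, so this does not set Eif4e2 apart. In this TE comparison, 1754 of 10509 transcripts had an unadjusted edgeR p under 0.05. Without ctrl Torin1 replicate 1 of the ribo-seq, the highest of the ctrl values, the footprint difference was 0.48 (adjusted p = 0.0473) and that in TE 0.54 (adjusted p = 0.0468). Leaving out other single libraries brought them as low as 0.27 (adjusted p = 0.369) and 0.33 (adjusted p = 0.278). With DMSO the difference in TE was 0.44 (-0.03 to 0.91, adjusted p = 0.978), and 0.25 without ctrl DMSO replicate 1 of the ribo-seq. With Torin1 against DMSO in ctrl, the Eif4e2 mRNA differed by -0.30 (-0.57 to -0.04, adjusted p = 0.18), and by -0.17 without ctrl DMSO replicate 2.

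**Figure D2:**
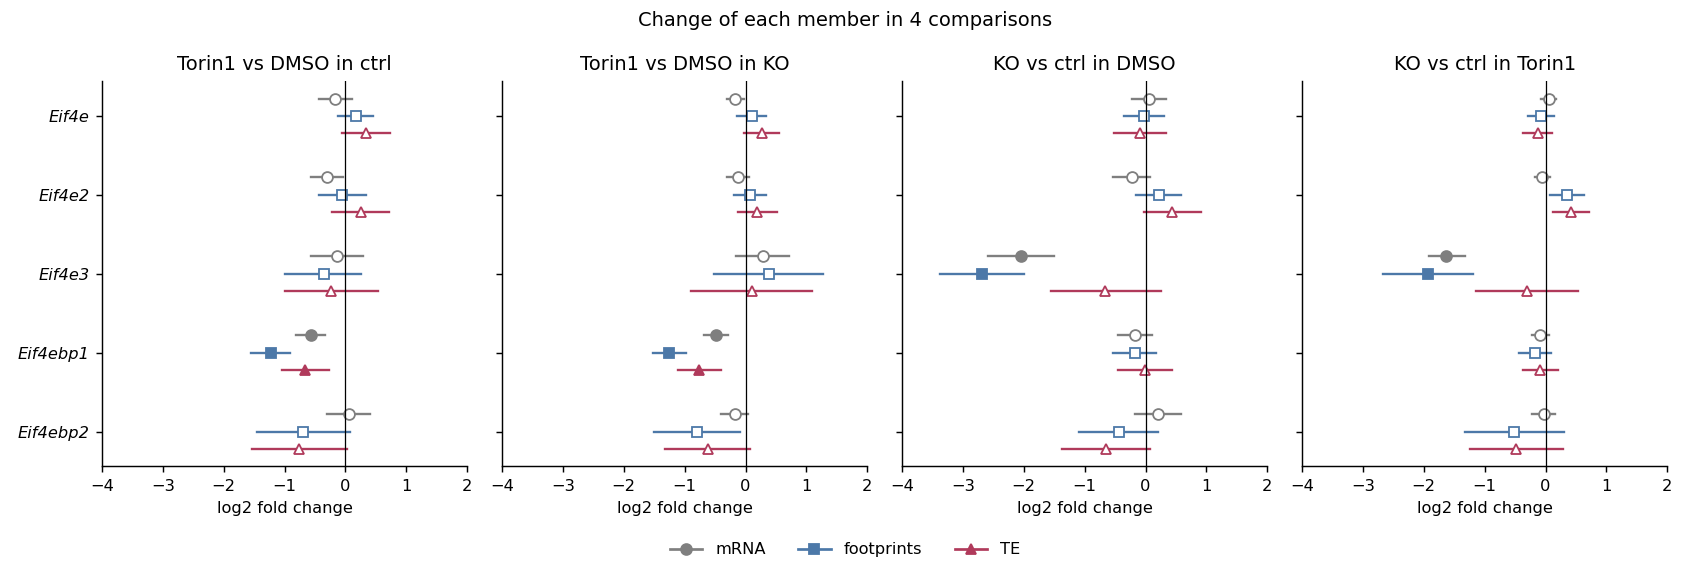
log2 fold change of each member (rows) in 4 comparisons (panels), for mRNA (circles), footprints (squares) and TE (triangles), with lines for the 95% interval and filled symbols for an edgeR adjusted p under 0.05. Filled symbols appear only for Eif4ebp1 with Torin1, between -1.25 and -0.48, and for the mRNA and footprints of Eif4e3 in KO, between -2.69 and -1.63.

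Of the inhibitors, Eif4ebp1, which encodes the main 4E-BP, was lower with Torin1 in mRNA, footprints and TE, in ctrl and in KO. It was the 1 member of 5 called in each of these 6 comparisons, and it was called lower in all of them. Of all transcripts tested, 0.675% in mRNA, 9.93% in footprints and 4.32% in TE were called lower in ctrl. In KO these shares were 3.74%, 22.1% and 17.8%, so 1 of 5 is close to the share in footprints and TE there. Eif4ebp1 mRNA was at 341, 352 and 296 CPM in ctrl DMSO and at 226, 217 and 222 CPM in ctrl Torin1. In KO it was at 285, 327 and 263 CPM with DMSO and at 223, 215 and 186 CPM with Torin1. DMSO and Torin1 libraries did not overlap in either. How many of all transcripts lack such overlap was not counted, here or for footprints and TE below.

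Footprints on Eif4ebp1 fell further. They were at 273 and 238 CPM in ctrl DMSO and at 128, 103 and 101 CPM in ctrl Torin1. In KO they were at 274, 213 and 198 CPM with DMSO and at 87.7, 109 and 94.9 CPM with Torin1. Every Torin1 library was below every DMSO library by a wide margin.

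With Torin1 the mRNA changed by -0.57 on the log2 scale in ctrl (SE 0.107, 0.672-fold, edgeR adjusted p = 0.0154) and -0.48 in KO (SE 0.0925, 0.715-fold, adjusted p = 0.00741), where 2.73% and 9.97% of all transcripts were called. The first of these shares was unstable, at 12.1% with the replicate number as a block and 1.04% to 13.3% without single libraries. The footprint change was -1.23 in ctrl (SE 0.153, 0.425-fold, edgeR adjusted p = 1.16e-05) and -1.25 in KO (SE 0.133, 0.421-fold, adjusted p = 2.98e-09), with 15.6% and 40.6% of transcripts called. The mRNA call in ctrl was lost without ctrl DMSO replicate 1 (adjusted p = 0.0522) or any of ctrl Torin1 replicates 1, 2 and 3 (0.0894, 0.116 and 0.0974), at changes of -0.54 to -0.59. The footprint calls held without each library in turn, with changes of -1.34 to -1.11 in ctrl and -1.34 to -1.10 in KO.

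The TE of Eif4ebp1 was 0.801 and 0.803 in ctrl DMSO and 0.567, 0.474 and 0.455 in ctrl Torin1. In KO it was 0.963, 0.65 and 0.753 with DMSO and 0.393, 0.508 and 0.51 with Torin1. Here too the treatments did not overlap. The change was -0.66 in ctrl (SE 0.187, 0.634-fold, edgeR adjusted p = 0.0478, with 4.72% of transcripts called) and -0.76 in KO (SE 0.17, 0.589-fold, adjusted p = 0.0014, with 28.3% called).

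The TE call in ctrl was marginal. It was lost with no scaling (-0.50, adjusted p = 0.122), with RLE size factors (0.0529), with no filter on low counts (0.053), with the replicate number as a block (0.107), with limma-voom (0.0536) and without any of 8 of the 11 libraries, at changes of -0.69 to -0.54 and adjusted p of 0.0543 to 0.256. Those 8 were the RNA-seq libraries ctrl DMSO replicates 1 and 3 and ctrl Torin1 replicates 1, 2 and 3, and the ribo-seq libraries ctrl DMSO replicate 1 and ctrl Torin1 replicates 2 and 3. In KO the call held in every alternative run, with adjusted p of 0.000285 to 0.00908 when each library was left out in turn.

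The response of Eif4ebp1 to Torin1 was set side by side in ctrl and KO by the interaction of genotype and treatment. The interaction was 0.09 on the log2 scale in mRNA (95% interval -0.21 to 0.38), 0.01 in footprints (-0.42 to 0.44) and -0.08 in TE (-0.61 to 0.45). Differences between the genotypes within these bounds could not be told from no difference with these replicates. For the 5 members, 0 interactions were called by edgeR in mRNA, in footprints or in TE, 0 had an unadjusted p under 0.05, and 0 were called by DESeq2 or, for TE, limma-voom. Over all transcripts the interaction was called by edgeR for 0% in mRNA (108 of 11073 at an unadjusted p under 0.05, and 0 by DESeq2), 0.113% in footprints and 0% in TE (600 of 10443 at an unadjusted p under 0.05, and 0 by limma-voom).

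Between KO and ctrl, Eif4ebp1 was not called. With DMSO its difference was -0.17 in mRNA (-0.45 to 0.10), -0.18 in footprints (-0.53 to 0.17) and -0.01 in TE (-0.46 to 0.44). With Torin1 it was -0.09 (-0.22 to 0.05), -0.18 (-0.44 to 0.09) and -0.09 (-0.37 to 0.20). In TE, 0 members were called between KO and ctrl by edgeR or limma-voom, with 0 at an unadjusted p under 0.05 in DMSO and 1 in Torin1, Eif4e2. Over all transcripts, edgeR called 0% in TE with DMSO (416 of 10475 at an unadjusted p under 0.05, and 0 by limma-voom) and 2.99% with Torin1. The Torin1 and KO comparisons share libraries and are not independent.

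**Figure D3:**
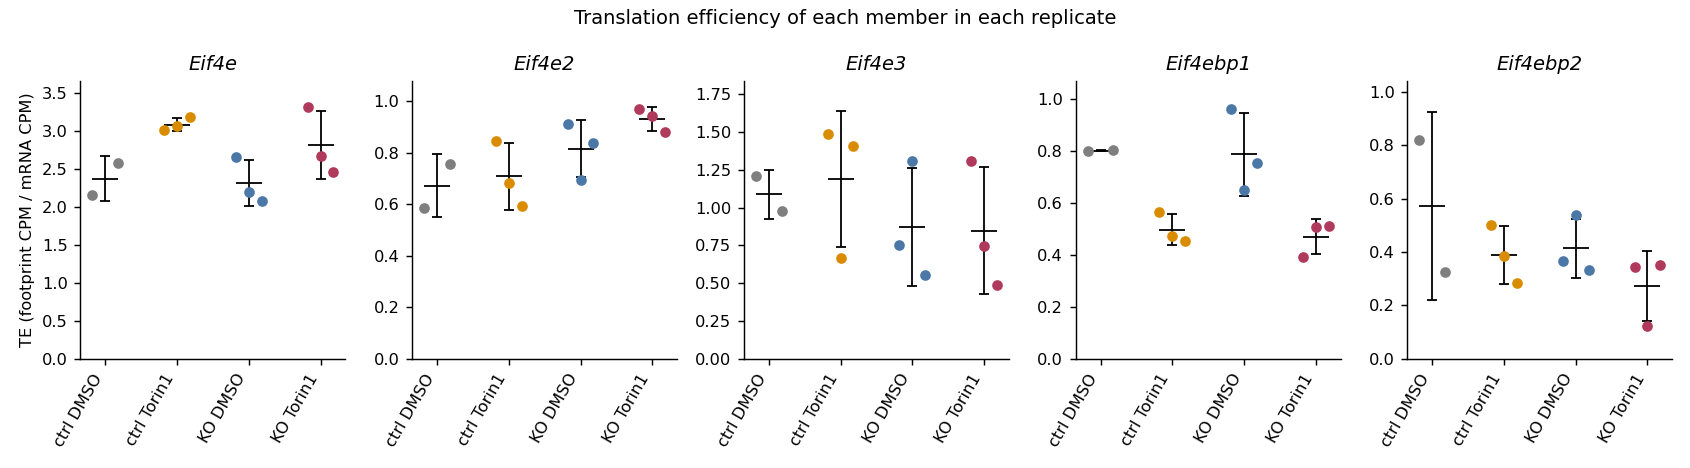
TE of each member, as footprint CPM divided by mRNA CPM in the same condition and replicate, with 1 point per replicate and black bars for the mean and SD. Eif4ebp1 lies at 0.65 to 0.963 with DMSO and 0.393 to 0.567 with Torin1, and Eif4e at 2.08 to 2.65 with DMSO and 2.46 to 3.32 with Torin1.

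Eif4ebp2, the second 4E-BP, was expressed at a much lower level. Its mRNA was at 17.5, 18 and 25.1 CPM in ctrl DMSO, 20.2, 20.5 and 22 in ctrl Torin1, 23.8, 20.5 and 25 in KO DMSO and 21.7, 19.8 and 19.6 in KO Torin1. Its footprints were at 14.4 and 8.1 CPM in ctrl DMSO, 10.1, 7.86 and 6.24 in ctrl Torin1, 8.69, 11.1 and 8.33 in KO DMSO and 7.49, 2.39 and 6.86 in KO Torin1, on 5 to 60 counts per library. In KO the Torin1 libraries lay below the DMSO libraries, and in ctrl they overlapped. Eif4ebp3, the third 4E-BP gene, was not a member, was not in the ratios below and was not tested in footprints. With Torin1, Eif4ebp3 mRNA changed by 0.25 on the log2 scale in ctrl (95% interval -0.33 to 0.82) and by 0.59 in KO (0.05 to 1.12). Neither was called (edgeR adjusted p = 0.586 and 0.151).

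The Torin1 change in Eif4ebp2 footprints was -0.69 in ctrl (95% interval -1.46 to 0.07, edgeR adjusted p = 0.218) and -0.79 in KO (-1.50 to -0.09, adjusted p = 0.0661). In mRNA it was 0.05 in ctrl (-0.30 to 0.40) and -0.18 in KO (-0.41 to 0.04). The footprint value in KO passed the threshold with the replicate number as a block (-0.82, adjusted p = 0.0497) and without KO Torin1 replicate 1 (-1.12, adjusted p = 0.0395), while without KO Torin1 replicate 2 it was -0.42 (adjusted p = 0.355). In ctrl it was -0.02 (adjusted p = 0.993) without ctrl DMSO replicate 1, so the footprint value in ctrl rested on that library. The TE changes were -0.76 (-1.54 to 0.02) in ctrl and -0.62 (-1.32 to 0.08) in KO. Without the same libraries of the ribo-seq they were -0.07 in ctrl and -0.25 in KO (edgeR adjusted p = 0.979 and 0.617). At these counts, a fall like that of Eif4ebp1 and no change both lie within the TE intervals.

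The order of the members by footprints per CDS length differed between the treatments. In ctrl DMSO, Eif4ebp1 was first at 722 ± 70.9 CPM per kb (SD, n = 2), followed by Eif4e at 450 ± 30.4, Eif4e2 at 113 ± 16.6, Eif4e3 at 31.9 ± 4.78 and Eif4ebp2 at 30.9 ± 12.2, and the last 2 did not differ beyond their spread. In ctrl Torin1, Eif4e was first at 508 ± 23.5 CPM per kb (n = 3), then Eif4ebp1 at 312 ± 42.8, Eif4e2 at 106 ± 17.4, Eif4e3 at 26.8 ± 7.64 and Eif4ebp2 at 22.3 ± 5.38, the last 2 again within their spread. KO showed the same exchange, with Eif4ebp1 at 645 ± 114 and Eif4e at 444 ± 51.1 in DMSO, and at 275 ± 30.9 and 481 ± 63.2 in Torin1. In KO, Eif4e3 had the lowest mean, at 4.97 ± 0.92 with DMSO and 6.54 ± 3.61 with Torin1, against 25.8 ± 4.13 and 15.4 ± 7.65 for Eif4ebp2. With Torin1 the libraries of these 2 genes overlapped, on 4 to 15 and 5 to 17 counts. In mRNA, Eif4ebp1 stayed first in all 4 conditions, at 588 to 932 CPM per kb on average.

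The balance of inhibitors to Eif4e was followed within each library as the counts of Eif4ebp1 and Eif4ebp2 per CDS length, summed and divided by that of Eif4e, which no scaling between libraries can change. In footprints this ratio was 1.72 and 1.62 in ctrl DMSO and 0.74, 0.604 and 0.628 in ctrl Torin1. In KO it was 1.59, 1.51 and 1.42 with DMSO and 0.485, 0.695 and 0.658 with Torin1. All DMSO libraries lay above 1 and all Torin1 libraries below it. Eif4ebp1 makes up most of the sum, at 722 against 30.9 CPM per kb for Eif4ebp2 in ctrl DMSO footprints. The ratio therefore largely repeats the fall of Eif4ebp1 and is not separate evidence. It is a ratio of counts, and a value of 1 does not give the balance of the proteins, whose amounts were not followed here.

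The mean ratio in footprints was 1.67 ± 0.0717 (SD, n = 2) in ctrl DMSO, 0.657 ± 0.0726 (n = 3) in ctrl Torin1, 1.5 ± 0.085 (n = 3) in KO DMSO and 0.613 ± 0.112 (n = 3) in KO Torin1. In a two-sided exact permutation test of the treatment within genotype, the difference was -1.33 on the log2 scale, or 0.397-fold, with p = 0.005, the smallest that the 200 arrangements allow, and 0.04 after Benjamini-Hochberg adjustment over 8 such tests. It was lower with Torin1 in 5 of 5 pairs of the same replicate number. In mRNA the ratio was 5.39 ± 0.705 and 4.16 ± 0.336 in ctrl, DMSO first, and 4.61 ± 0.531 and 3.77 ± 0.452 in KO, a difference of -0.33, or 0.795-fold (exact permutation p = 0.01, adjusted p = 0.04, lower in 6 of 6 pairs). With Eif4ebp1 alone as the inhibitor, the difference was -1.36 in footprints (exact permutation p = 0.005) and -0.36 in mRNA (exact permutation p = 0.01). With Eif4ebp2 alone it was -0.82 in footprints (exact permutation p = 0.015) and 0.11 in mRNA (exact permutation p = 0.495). Between KO and ctrl the ratio differed by -0.18 in mRNA (exact permutation p = 0.07, adjusted p = 0.14, lower in 5 of 6 pairs) and by -0.13 in footprints (exact permutation p = 0.19, adjusted p = 0.246, lower in 3 of 5 pairs).

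The same was done for Eif4e2 against Eif4e. In footprints the ratio was 0.216 and 0.292 in ctrl DMSO, 0.238, 0.197 and 0.19 in ctrl Torin1, 0.273, 0.289 and 0.301 in KO DMSO and 0.273, 0.296 and 0.273 in KO Torin1. The KO and ctrl libraries overlapped with DMSO and did not with Torin1. How often ratios of other genes lack overlap in the same way was not counted. The difference between KO and ctrl within treatment was 0.32 on the log2 scale, or 1.25-fold (exact permutation p = 0.02, adjusted p = 0.0533, higher in 5 of 5 pairs), and it did not pass the threshold after adjustment. This ratio reuses the Eif4e2 and Eif4e footprint counts given above and is not separate evidence. In mRNA the ratio differed in the other direction, by -0.21 (exact permutation p = 0.11, adjusted p = 0.176, lower in 5 of 6 pairs). With Torin1 the differences were -0.15 in footprints (exact permutation p = 0.215, adjusted p = 0.246, lower in 3 of 5 pairs) and -0.04 in mRNA (exact permutation p = 0.745, adjusted p = 0.745, in this direction in 2 of 6 pairs).

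**Figure D4:**
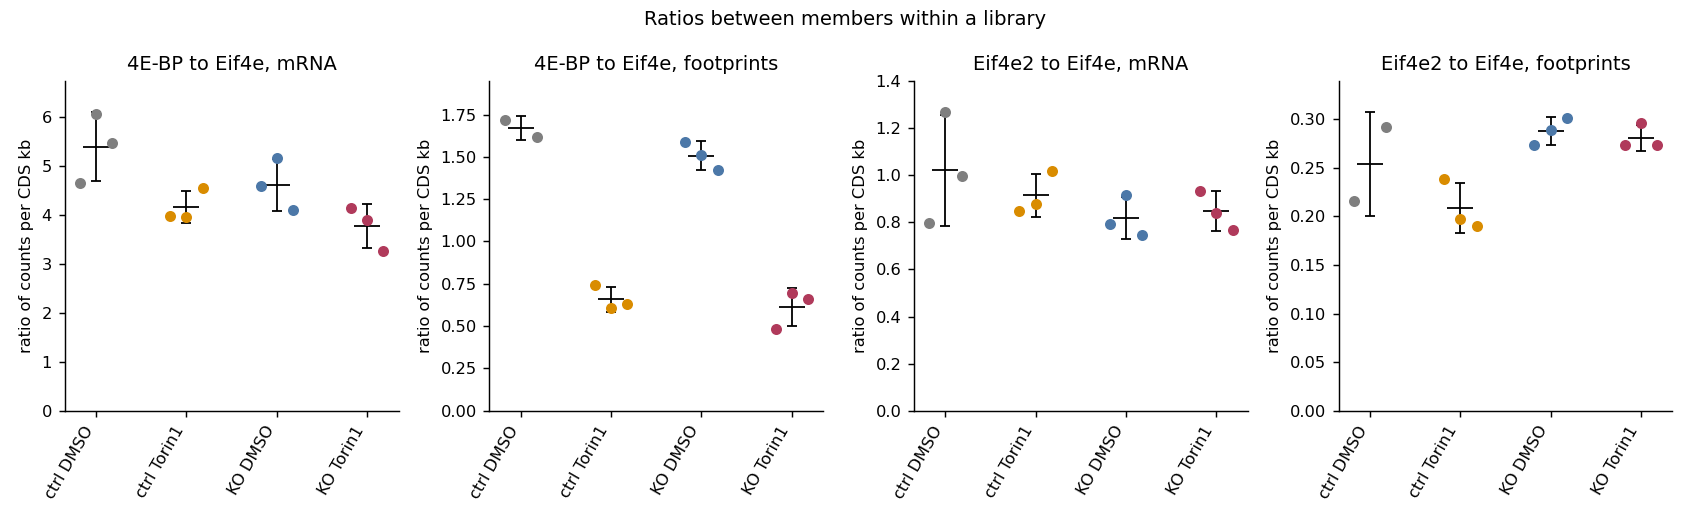
Ratio of the summed 4E-BP counts per CDS kb to that of Eif4e, and of Eif4e2 to Eif4e, in mRNA and footprints, with 1 point per library and black bars for the mean and SD. The 4E-BP to Eif4e ratio in footprints is 1.42 to 1.72 with DMSO and 0.485 to 0.74 with Torin1, while the Eif4e2 to Eif4e ratio in footprints stays at 0.19 to 0.301.

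By the likeness of their footprint levels over the 11 ribo-seq libraries (Pearson r of log2(CPM + 1) among 6661 transcripts with a mean of at least 50 counts), Eif4ebp1 was closest to Rps21 (r = 0.992) and Rpl14 (0.987), which encode ribosomal proteins, and to Taldo1 (0.987), a pentose phosphate enzyme. For Eif4e the closest were Lrr1 (0.865), Ak6 (0.862) and Lsm3 (0.850), and for Eif4e2 they were Gm49325 (0.890), Tmsb10 (0.846) and Lin37 (0.845). Eif4e3 was closest to Ngdn (0.928), Setd7 (0.881) and Htra2 (0.876), and Eif4ebp2 to Nol7 (0.936), Nrf1 (0.889) and Pdxdc1 (0.884). The minimum of 50 counts was not asked of the members. Eif4e3 and Eif4ebp2 averaged 22.5 and 21.8 counts per library, so their values rest on few counts. The libraries share treatment and genotype, and the highest of many values is listed for each member, so these are descriptions without a test.

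The other genes of cap binding and of its control were described from a list of 27, of which 25 were tested in mRNA and 24 in footprints and TE. With Torin1 in ctrl, 4 of 24 were lower and 3 higher in footprints, where 9.93% and 5.69% of all transcripts were, and the median log2 change was -0.14 against 0.02 over all transcripts. In KO, 8 were lower and 5 higher, where 22.1% and 18.5% of all transcripts were, with a median of -0.23 against 0.02. In TE, 3 were lower and 0 higher in ctrl (4.32% and 0.393% of all), with a median of -0.15 against -0.01, and 7 were lower and 4 higher in KO (17.8% and 10.5% of all), with a median of -0.26 against -0.01. In mRNA, 0 of 25 were lower and 1 higher in ctrl (0.675% and 2.05% of all), and 2 were lower and 3 higher in KO (3.74% and 6.23% of all), with a median of 0.09 in both.

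Eif4a2, a helicase subunit of eIF4F, fell in footprints by 1.24 on the log2 scale in ctrl (SE 0.161, edgeR adjusted p = 2.07e-05). Its TE changed by -1.70 in ctrl (adjusted p = 8.49e-06) and -1.59 in KO (adjusted p = 1.28e-09), while its mRNA rose by 0.61 in KO (adjusted p = 0.00071). Eif4b, a cofactor of that helicase, was 0.5-fold in ctrl (edgeR adjusted p = 7.3e-05) and 0.504-fold in KO (adjusted p = 1.89e-08) in footprints, and its TE changed by -1.27 and -1.25 on the log2 scale (adjusted p = 5.33e-05 and 3.11e-08).

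Gigyf1, a partner of eIF4E2, rose in mRNA with Torin1 by 0.94 in ctrl (SE 0.197, edgeR adjusted p = 0.0262) and 0.71 in KO (adjusted p = 0.000712). Mknk2, a kinase that phosphorylates eIF4E1, changed in footprints with Torin1 by -1.86 in ctrl (SE 0.304, edgeR adjusted p = 0.000268) and by -2.57 in KO (SE 0.302, adjusted p = 2.55e-08). Its interaction of genotype and treatment in footprints was -0.69 (95% interval -1.62 to 0.25) and was not called. Mknk2 was also the 1 listed gene of 24 called between KO and ctrl with Torin1, at -1.60 in footprints (SE 0.412, edgeR adjusted p = 0.0118) and -1.50 in TE (SE 0.408, adjusted p = 0.0395), where 6.03% and 2.99% of all transcripts were called. The other tools gave changes of like size without that call, limma-voom -1.45 in TE with an adjusted p of 0.125 and DESeq2 -1.64 in footprints with no adjusted p. With DMSO, 0 listed genes were called between KO and ctrl by edgeR in mRNA, footprints or TE, where 0.0183%, 0.0279% and 0% of all transcripts were, and 0 by DESeq2 or limma-voom. At an unadjusted p under 0.05 there were 0, 1 and 1, and the 1 was Mknk2, at -0.90 in footprints and -0.89 in TE (edgeR adjusted p = 0.391 and 0.978).

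**Figure D5:**
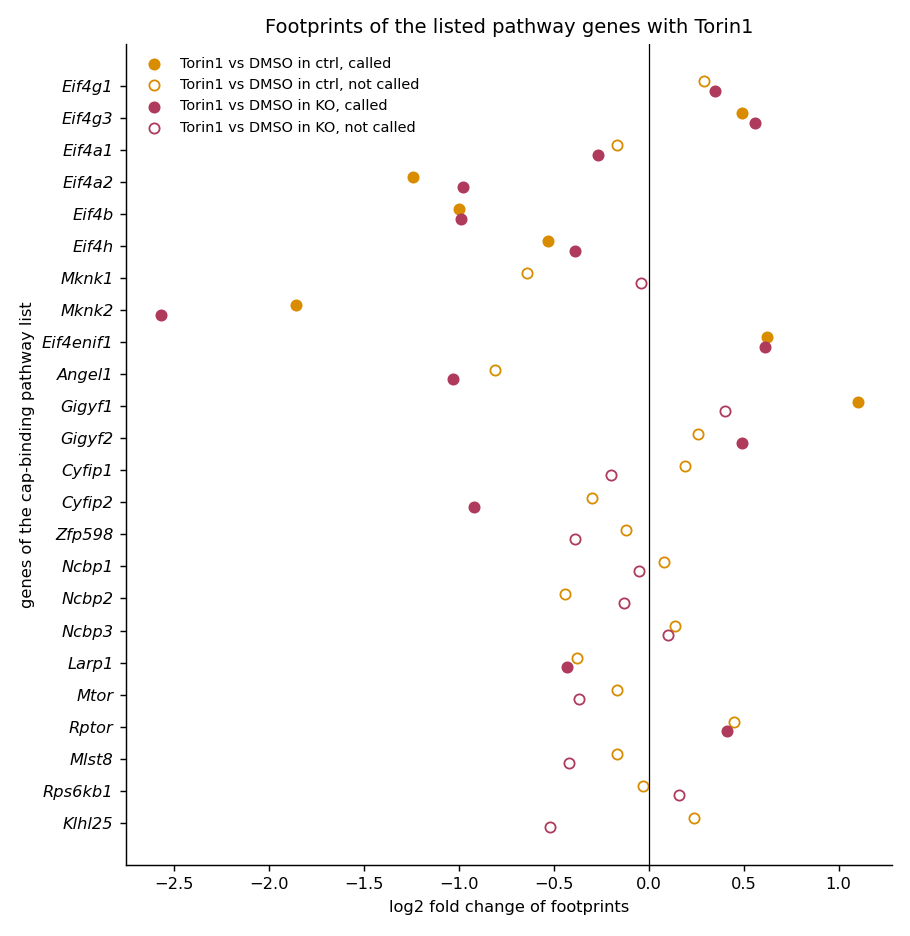
log2 fold change of footprints with Torin1 against DMSO for the 24 tested genes of the pathway list, in ctrl and in KO, with filled points for an edgeR adjusted p under 0.05. Eif4a2, Eif4b and Mknk2 lie at -0.98 or below in both genotypes, and 17 genes in ctrl and 11 in KO are open.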

How the data were processed

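RNA-seq (TruSeq stranded mRNA) and ribo-seq were made from N2a cells. The authors trimmed adaptors from ribo-seq reads with cutadapt, aligned reads to mm10 (HISAT2), then to the canonical transcripts of Ensembl (Bowtie2). They deposited 8 tables of raw counts over each CDS, with a table for every assay and comparison (P-sites for ribo-seq, all CDS reads for RNA-seq). They kept primary alignments only and removed reads on rRNA, tRNA and pseudogenes, and Bowtie2 ran at its defaults. Strand rules of the counting are not given in the sources used here, so related or overlapping genes could share reads. The authors' columns of fold change, average log2 CPM, p-value and FDR from edgeR, and their TE tables (TE per condition, ratio and p-values), were not used, and 0 columns of single libraries were left out. Where the RNA-seq table for the KO effect in DMSO gives 2 columns of a genotype the same replicate number, both were used unnumbered.

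Transcripts with over 1 CPM in all libraries of at least 1 condition were kept, and counts were fitted with edgeR 4.0.16 (TMM, quasi-likelihood F-test, Benjamini-Hochberg, threshold 0.05) in R 4.3.3, separately for each pair, and in all 4 conditions for the interaction. TE was the interaction of assay and condition, scaled within assay. SEs are the log2 change divided by the root of F, and intervals are 95% intervals from them. Since TE here divides CPM of 2 assays, its absolute level is relative to the assays' totals. The fits were tested on simulated data. Ratios used exact permutation within strata. Alternatives were no scaling, RLE, no filter, the replicate number as a block, DESeq2 1.42.0, limma-voom (limma 3.58.1) for TE, all conditions together, and leaving out each library. Per the labels, replicates differ in passage, and the number was taken to pair libraries in the block and the counts of pairs. The main fits held no term for the number, so their p-values ignore this pairing. Once condition means were removed, libraries sharing a number correlated at r of 0.0398 to 0.737 (RNA-seq) and -0.0395 to 0.141 (ribo-seq). Libraries of different numbers correlated at -0.589 to 0.431 (RNA-seq) and -0.141 to 0.117 (ribo-seq).

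Named genes were the members, up to 2 called genes of the pathway list with the smallest adjusted p per comparison, and the 3 most alike transcripts per member. The members and the lists were chosen with earlier results of these data known. Start sites and 3 sequences came from RefSeq on GRCm38.p6, and gene models from GENCODE M21, where 12703 of 12759 transcripts matched. The study calls the ribo-seq replicates biological ones, and p-values measure the spread between these libraries.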

Additional observations from a re-analysis of the deposited data

How the results depend on the processing

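Over the alternatives, 822 of 890 log2 changes of single members kept their direction and their side of the threshold, 22 lost a call, 9 gained one and 37 turned direction, none of the last with a call. The cause of these differences was not tested. The number of members called of 5 differed from the reported 1 as follows. With no scaling it was 0 for mRNA of KO against ctrl in DMSO, 3 for footprints and 3 for TE with Torin1 in KO, and 0 for TE with Torin1 in ctrl, where it was also 0 with RLE size factors, no filter, the replicate block and limma-voom. Of all transcripts, 5298 in footprints and 3756 in TE were called with Torin1 in KO when not scaled. With the block the number of members called was 2 for footprints with Torin1 in KO. The block changed no other call of a member. DESeq2 gave Eif4e3 no adjusted p for footprints of KO against ctrl in Torin1. Leaving out each library, the number ranged from 0 to 1 for mRNA and TE with Torin1 in ctrl and for mRNA and footprints of KO against ctrl in DMSO, from 1 to 2 for footprints and TE with Torin1 in KO and footprints of KO against ctrl in Torin1, and from 0 to 1 (reported 0) for TE of KO against ctrl in Torin1. Without a ctrl DMSO library of the ribo-seq, the lone remaining library was assumed to vary like the other condition.

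Values that turned had no call in either fit. With the block, Eif4e2 footprints with Torin1 in ctrl were 0.01 (0.16 with no scaling), Eif4e footprints of KO against ctrl in DMSO 0.02, Eif4e3 TE with Torin1 in ctrl 0.08, Eif4ebp1 TE of KO against ctrl in DMSO 0.06, the Eif4ebp1 footprint interaction -0.02 (0.00 with RLE and -0.01 with DESeq2) and the Eif4ebp2 TE interaction -0.01. With no scaling the TE interactions of Eif4e and Eif4e2 were 0.00 and 0.01, and with limma-voom Eif4e3 TE with Torin1 in KO was -0.02. Leaving out each library, the ranges that crossed 0 were, with Torin1 in ctrl, -0.04 to 0.23 for Eif4ebp2 mRNA, -0.24 to 0.05 for Eif4e2 footprints and -0.40 to 0.01 for Eif4e3 TE. With Torin1 in KO they were -0.02 to 0.20 for Eif4e, -0.02 to 0.15 for Eif4e2 and -0.18 to 0.63 for Eif4e3 in footprints, and -0.47 to 0.34 for Eif4e3 TE. For KO against ctrl in DMSO they were -0.01 to 0.19 for Eif4e mRNA, -0.13 to 0.04 for Eif4e and -0.59 to 0.23 for Eif4ebp2 in footprints, and -0.16 to 0.10 for Eif4ebp1 and -0.83 to 0.03 for Eif4ebp2 in TE. In Torin1 they were 0.00 to 0.10 for Eif4e and -0.08 to 0.01 for Eif4ebp2 in mRNA, and -0.17 to 0.02 for Eif4ebp1 TE.

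For the ratios, judged by the unadjusted exact p, single strata could not pass (smallest p 0.1). With Torin1 the 4E-BP to Eif4e ratio differed by -0.37 in ctrl and -0.29 in KO in mRNA, and by -1.35 and -1.31 in footprints, where the block gave -1.30 (exact permutation p = 0.0625, the smallest that 5 pairs allow). With Eif4ebp2 alone the mRNA differences were 0.11 with Torin1 and 0.03 for KO against ctrl. The footprint differences were then -0.82 and -0.39, in the direction of the summed ratio. Leaving out each library, the mRNA ratio of KO against ctrl ranged from -0.23 to -0.13. The Eif4e2 to Eif4e difference of KO against ctrl in footprints was 0.20 in DMSO, 0.44 in Torin1, 0.34 with the block (exact permutation p = 0.0625) and 0.21 to 0.43 without each library, at p of 0.0125 to 0.075 in exact permutation tests. In mRNA it was -0.29 to -0.12 without each library, and with Torin1 it was 0.05 in KO and -0.13 to 0.04 without each library. Over all transcripts, the number called in mRNA was 299 with Torin1 in ctrl, 1097 in KO, 2 between the genotypes under DMSO and 216 under Torin1, against 1328, 1797, 866 and 1041 with the block, and 114 to 1465, 438 to 1465, 0 to 10 and 6 to 174 without each library. For footprints with Torin1 in ctrl it was 725 to 2291 (reported 1670), and for TE of KO against ctrl in Torin1 550 with the block (reported 314). Ribo-seq depth limits Eif4e3 and Eif4ebp2 most.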
